A study of Mus musculus with 17 samples.

Results

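Mouse embryos homozygous for the CH gene trap of Klf3 were compared with embryos homozygous for the H275R point mutation of the same gene, on arrays of whole embryos at E12.5. The rule for choosing the arrays was the genotype in the submitters' labels, which put 4 arrays in the CH homozygous group and 3 in the H275R/H275R group, 7 of the 17 arrays in the series. All 39137 probe sets of the array were tested. The other arrays were 4 Klf3+/+ embryos (WT), 4 H275R/+ embryos and 2 CH heterozygous embryos. They served to place each homozygote and to estimate the spread. The heterozygotes were also compared with each other, and their difference was set against that of the homozygotes. The CH line carried a gene trap cassette in intron 1 of Klf3, was derived from 1 embryonic stem cell line and was kept on a mixed B6 and 129 background, whereas the H275R line arose by ENU mutagenesis and was bred onto B6. Allele and line were therefore the same variable between the homozygotes, as between the heterozygotes, and cannot be told apart from these arrays. No agent was given to any group, embryos came from timed matings, and neither sex nor litter was stated. Because the labels did not tie embryos to litters, the p-values below measure the spread between these embryos only.

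KLF3 is a zinc finger transcription factor of the Krüppel-like family. It binds CACCC-type DNA elements through its zinc fingers and acts mainly as a repressor by recruiting the corepressor CtBP. It has known roles in red cell, B cell, fat and cardiovascular development. A gene trap removes the transcript, whereas the H275R allele leaves the transcript and a protein with an altered residue in the first zinc finger. The question was thus which transcripts differed when KLF3 was missing rather than altered.

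The values are log2 signals after robust multiarray averaging, so a difference of 1 is a 2-fold difference. Array medians lay between 6.68 and 6.78, correlations between arrays lay between 0.981 and 0.994, and no arrays held identical values. Over the 7 homozygote arrays the first component held 30.8% of the variance and set CH 2 and CH 4 (scores of 30.1 and 38.7) apart from the 5 others (scores from -36.2 to -1.87), while the second held 22.8% and set CH 1 and CH 3 (scores of -29.4 and -33.6) apart. Kdm5d, a Y-linked histone demethylase, read 9.54 in H275R 1 and 9.52 in CH 3 and between 3.79 and 4.46 in the other 5, so that each group held 1 array with a high value. Some markers of embryonic tissues were high in all 17 arrays, with Alb (liver) at 11.4 or more, Cdh5 (endothelium) between 10.76 and 11.14 and Tubb3 (neurons) at 10.7 or more. Others were lower, with Myh6 (heart) between 7.44 and 8.15 and Hba-x (primitive red cells) between 7.03 and 8.48. The placental gene Tpbpa read 7.55 in WT 4 and between 4.45 and 5.16 in the other 16 arrays.

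Klf3 itself separated the homozygotes most. Klf3 (probe set 17437674, chromosome 5) read 5.27, 5.62, 5.73 and 6.13 in CH homozygotes 1 to 4, and 9.65, 9.33 and 9.38 in H275R homozygotes 1 to 3. All CH values lay below all H275R values, and the fitted difference was -3.77 ± 0.16 (SE), a level 13.6-fold higher in H275R homozygotes (limma, adjusted p = 2.613e-08). The H275R homozygotes lay 0.15 below the WT mean (SE 0.16, adjusted p = 0.999), and the CH homozygotes differed from it by -3.92 ± 0.14 (adjusted p = 5.177e-09). These WT comparisons share the same 4 WT arrays. The CH heterozygotes read 9.64 and 9.09, within or just under the range of 9.45 to 9.70 in H275R heterozygotes.

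Across all probe sets, 64 passed an adjusted p of 0.1 between the homozygotes (0.164% of 39137), with 32 higher in CH homozygotes (0.0818%) and 32 lower (0.0818%). This split depended on the fit. When each array was centred on its median, 27 of 71 passing probe sets were higher, and after a further quantile normalization 27 of 70 were. With only the 7 homozygote arrays fitted 13 of 15 were higher, and 8 of the 15 were among the 64. Without H275R homozygote 3, 48 of 62 were higher. At an unadjusted p of 0.05, 4919 probe sets passed. Taking 1 probe set for each of 22180 genes, 30 genes passed (0.135%), 13 higher and 17 lower in CH homozygotes, and only Klf3, Fah, Snora31 and Gimap4 of them differed by over 2-fold. The arrays of the homozygotes did not overlap for any of the 30 genes, which follows largely from their selection on these arrays. Over all probe sets 10.7% did not overlap. By contrast, 23 probe sets passed between CH homozygotes and WT (0.0588%) and 5 between H275R homozygotes and WT (0.0128%). The count of passing probe sets was unstable, from 18 without H275R homozygote 1 to 547 without CH homozygote 1, but Klf3, Gimap4, Fah, Hydin, Myh9, Zdhhc2 and Coq2 passed whichever of the 15 arrays was left out. Hydin, Myh9 and Zdhhc2 did not pass when only the 7 homozygote arrays were fitted, and these genes and Coq2 did not pass with the red cell list mean as a covariate, a fit added after the data were seen. No gene passed under every alternative, since the methods' t-test passed none after adjustment.

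**Figure D1:**
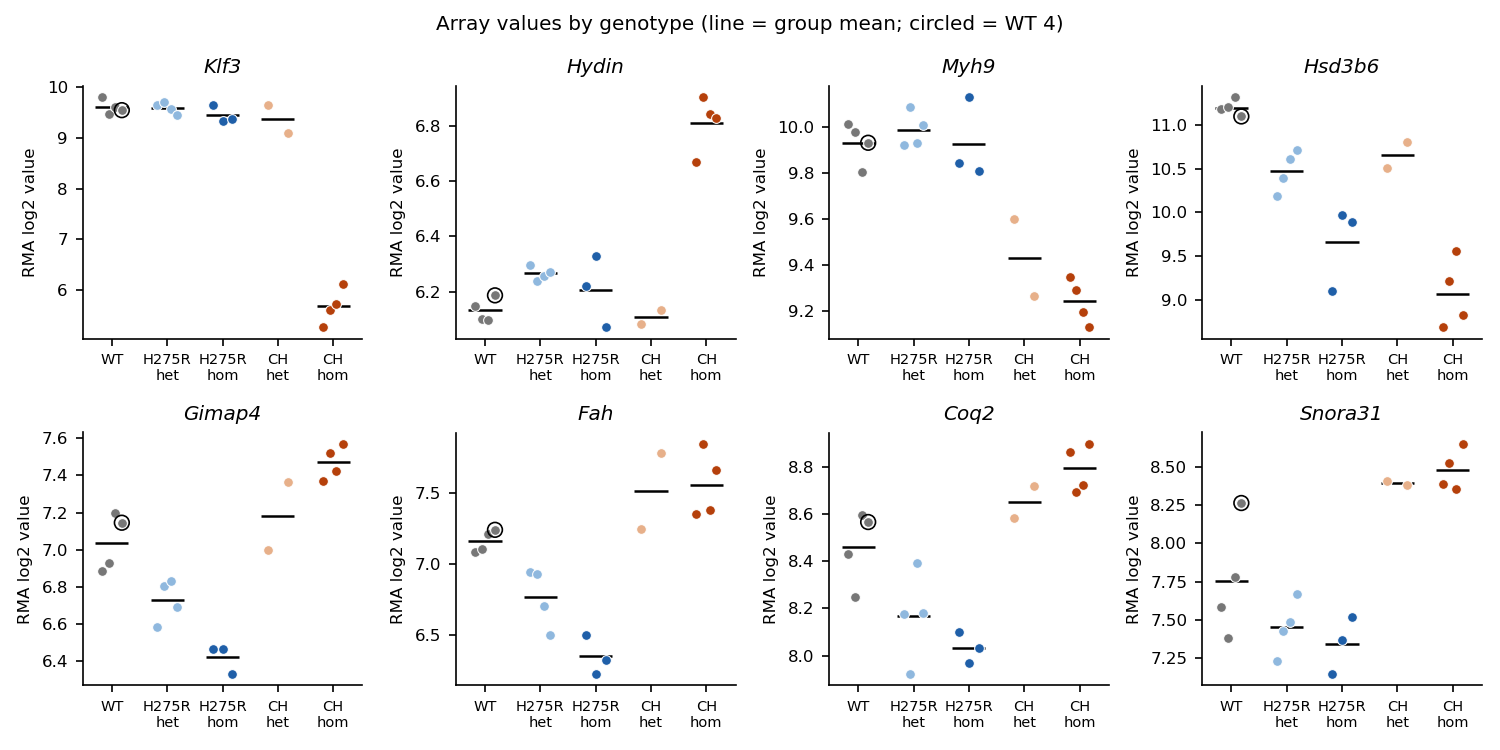
RMA log2 value of 8 genes (vertical axis) in each array, by genotype (horizontal axis); points are embryos, lines are group means and WT 4 is circled. CH homozygotes read 5.27 to 6.13 for Klf3 against 9.33 to 9.65 in H275R homozygotes, and Hydin was high in CH homozygotes but not in CH heterozygotes.

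Windows of 250 bases before the start of 6 genes are shown because KLF3 is known to bind CACCC elements and because 5 of them were the genes with the smallest adjusted p, while Hsd3b6, a steroid dehydrogenase, was far below WT in both homozygotes. The sequences are from RefSeq (GRCm38.p6), run 5′ to 3′ on the gene's strand, and capitals mark CACCC or its reverse complement GGGTG:
Klf3 (chr5:64803271-64803520, plus strand): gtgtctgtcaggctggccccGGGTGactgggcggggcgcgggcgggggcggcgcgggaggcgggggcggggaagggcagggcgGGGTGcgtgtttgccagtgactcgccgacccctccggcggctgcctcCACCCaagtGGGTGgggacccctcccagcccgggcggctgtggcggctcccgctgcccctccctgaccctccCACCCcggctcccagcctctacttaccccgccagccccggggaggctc
Hydin (chr8:110266727-110266976, plus strand): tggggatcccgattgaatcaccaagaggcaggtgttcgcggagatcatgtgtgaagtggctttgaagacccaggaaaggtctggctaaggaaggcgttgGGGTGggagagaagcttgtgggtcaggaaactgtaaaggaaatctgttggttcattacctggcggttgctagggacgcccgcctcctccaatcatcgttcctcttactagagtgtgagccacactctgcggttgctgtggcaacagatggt
Gimap4 (chr6:48684328-48684577, plus strand): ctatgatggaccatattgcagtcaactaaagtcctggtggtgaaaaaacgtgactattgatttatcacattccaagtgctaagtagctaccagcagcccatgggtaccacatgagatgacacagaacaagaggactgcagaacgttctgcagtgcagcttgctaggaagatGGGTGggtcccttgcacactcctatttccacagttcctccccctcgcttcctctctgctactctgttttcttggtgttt
Fah (chr7:84605943-84606192, minus strand): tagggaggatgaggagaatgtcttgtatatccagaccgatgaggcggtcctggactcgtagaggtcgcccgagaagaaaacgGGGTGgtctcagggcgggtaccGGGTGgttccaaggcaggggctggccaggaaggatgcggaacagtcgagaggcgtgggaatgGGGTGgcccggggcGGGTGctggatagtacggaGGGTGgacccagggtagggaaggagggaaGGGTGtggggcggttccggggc
Myh9 (chr15:77842176-77842425, minus strand): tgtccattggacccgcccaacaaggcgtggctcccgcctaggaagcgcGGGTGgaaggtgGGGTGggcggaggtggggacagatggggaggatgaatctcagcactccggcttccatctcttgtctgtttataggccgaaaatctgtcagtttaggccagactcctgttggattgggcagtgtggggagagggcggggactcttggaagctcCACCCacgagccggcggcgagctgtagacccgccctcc
Hsd3b6 (chr3:98814444-98814693, minus strand): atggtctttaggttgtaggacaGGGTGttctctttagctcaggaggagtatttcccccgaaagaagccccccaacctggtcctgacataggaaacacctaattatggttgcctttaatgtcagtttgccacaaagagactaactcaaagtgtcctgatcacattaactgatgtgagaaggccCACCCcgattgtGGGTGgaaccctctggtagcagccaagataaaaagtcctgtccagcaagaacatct
The motif CACCC, searched on both strands, was found 5 times in the Klf3 window, 6 times in that of Fah, 3 times in those of Myh9 and Hsd3b6, and 1 time in those of Hydin and Gimap4. Of the 30 passing genes, 18 had a window in the table and 11 of these held the motif (61.1%), against 51.3% of 27025 windows of the same length. The longer CCACACCC, which contains CACCC in overlap with it, was found in 1 of the 18 windows, that of Fah, and in 3.19% of all windows.

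A first set of genes departed from WT in the CH homozygotes. Hydin, a component of motile cilia (probe set 17505505, chromosome 8), read 6.67, 6.90, 6.84 and 6.83 in CH homozygotes and 6.22, 6.33 and 6.07 in H275R homozygotes. It was higher in CH homozygotes by 0.60 ± 0.07 (SE; limma, adjusted p = 0.00944), by 0.68 against WT (adjusted p = 0.00121), and the H275R homozygotes lay 0.07 above WT (adjusted p = 0.999). The CH heterozygotes, at 6.08 and 6.13, lay within the range of H275R homozygotes. A dimmer probe set of Hydin differed by -0.07 (adjusted p = 0.828), and the mean of both probe sets differed by 0.26 (adjusted p = 0.139). Among 18 motile cilia genes Hydin was the only one to pass, and their median difference was -0.04.

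Myh9, which encodes a motor subunit of nonmuscle myosin II (probe set 17318830, chromosome 15), read 9.35, 9.29, 9.20 and 9.13 in CH homozygotes and 9.84, 10.13 and 9.81 in H275R homozygotes. It was lower in CH homozygotes by a log2 difference of -0.68 ± 0.09 (adjusted p = 0.0142), while the H275R homozygotes sat at the WT level (a difference of -0.00, SE 0.09). Both CH heterozygotes, at 9.60 and 9.27, also fell below every H275R array and every WT array. Of 7 nonmuscle myosin genes Myh9 alone passed. The median of the 7 was -0.15, and 6 had a negative difference. Their mean level lay between 8.71 and 8.77 in CH homozygotes and between 8.89 and 9.01 in H275R homozygotes.

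Pcdhb6, a clustered protocadherin of neuronal membranes, read 8.49, 8.43, 8.52 and 8.91 in CH homozygotes and 7.92, 7.93 and 8.04 in H275R homozygotes, a difference of 0.62 ± 0.10 (adjusted p = 0.0610). The CH heterozygotes spanned both groups, at 6.75 and 9.07. Of 22 beta protocadherins, 1 passed higher and none lower, and 18 were above 0 with a median of 0.20.

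For a second set the H275R homozygote mean lay below WT and the CH homozygote mean above it, and only Gimap4 passed against WT. Gimap4, a GTPase of lymphocytes (probe set 17458362, chromosome 6), read 7.37, 7.52, 7.43 and 7.57 in CH homozygotes and 6.46, 6.46 and 6.33 in H275R homozygotes. The difference was 1.05 ± 0.09 (adjusted p = 3.72e-04), with H275R homozygotes 0.62 under WT in size (a difference of -0.62, adjusted p = 0.0850) and CH homozygotes 0.43 above it (adjusted p = 0.147). The H275R heterozygotes, at 6.58 to 6.83, lay between the H275R homozygotes and the WT range of 6.88 to 7.20. Of 8 Gimap genes Gimap4 alone passed, and the family median was 0.04.

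Fah, the last enzyme of tyrosine breakdown (probe set 17493005, chromosome 7), had the largest difference in size after Klf3 among the 30 passing genes. It read 7.35, 7.84, 7.38 and 7.66 in CH homozygotes and 6.50, 6.23 and 6.32 in H275R homozygotes, 2.31-fold higher in CH homozygotes (adjusted p = 0.00296). Its differences from WT were 0.40 in CH homozygotes (adjusted p = 0.367) and -0.81 in H275R homozygotes (adjusted p = 0.143). Of 6 measured genes of tyrosine breakdown 1 passed and 5 were above 0, with a median of 0.27.

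Coq2, a prenyltransferase of ubiquinone synthesis (probe set 17450131, chromosome 5), read 8.86, 8.69, 8.72 and 8.90 against 8.10, 7.97 and 8.03, a difference of 0.76 ± 0.11 (adjusted p = 0.0206). WT arrays, at 8.25 to 8.59, lay between the homozygotes. Of 11 genes of ubiquinone synthesis Coq2 alone passed, and their median was 0.04. Zdhhc2, a palmitoyltransferase (probe set 17500662, chromosome 8), read 8.82, 8.97, 9.12 and 8.87 against 8.49, 8.36 and 8.41, a difference of 0.52 ± 0.07 (adjusted p = 0.0206).

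A further 19 passing genes, apart from the small nucleolar RNAs described later, differed by 0.37 (F2rl2) to 0.85 (Mxra7) in size. Higher in CH homozygotes were also Dnase1l1 (0.64), Rgcc (0.52), Sfxn2 (0.52) and the zinc finger gene Zfp568 (0.49). Lower were Mxra7 (-0.85), Tmco6 (-0.79), Olfr531 (-0.65), Fam71e1 (-0.62), D630041G03Rik (-0.59), Lipg, an endothelial lipase (-0.57), Qpctl (-0.57), Magee2 (-0.55) and Cyb5r3, a reductase (-0.55). The cadherin Cdh3 (-0.48), the laminin receptor Bcam (-0.46), the hematopoietic factor Gata2 (-0.45), the somite factor Meox1 (-0.44), Zfp579 (-0.43) and the protease-activated receptor F2rl2 (-0.37) were lower too. Adjusted p for these 19 genes lay between 0.0244 (Zfp579) and 0.0979 (Lipg and Rgcc), and the next probe set, of Crip1, missed the threshold at 0.101 with a difference of 0.88. Of these 30 genes 5 passed between CH homozygotes and WT (Klf3, Hydin, Myh9, Snord73a and Pcdhb6), and for 24 neither difference from WT passed. The WT mean lay between the means of the homozygotes for 26. Choosing genes with a wide gap between the homozygotes favours this position, and no share over all genes is given for it.

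**Figure D2:**
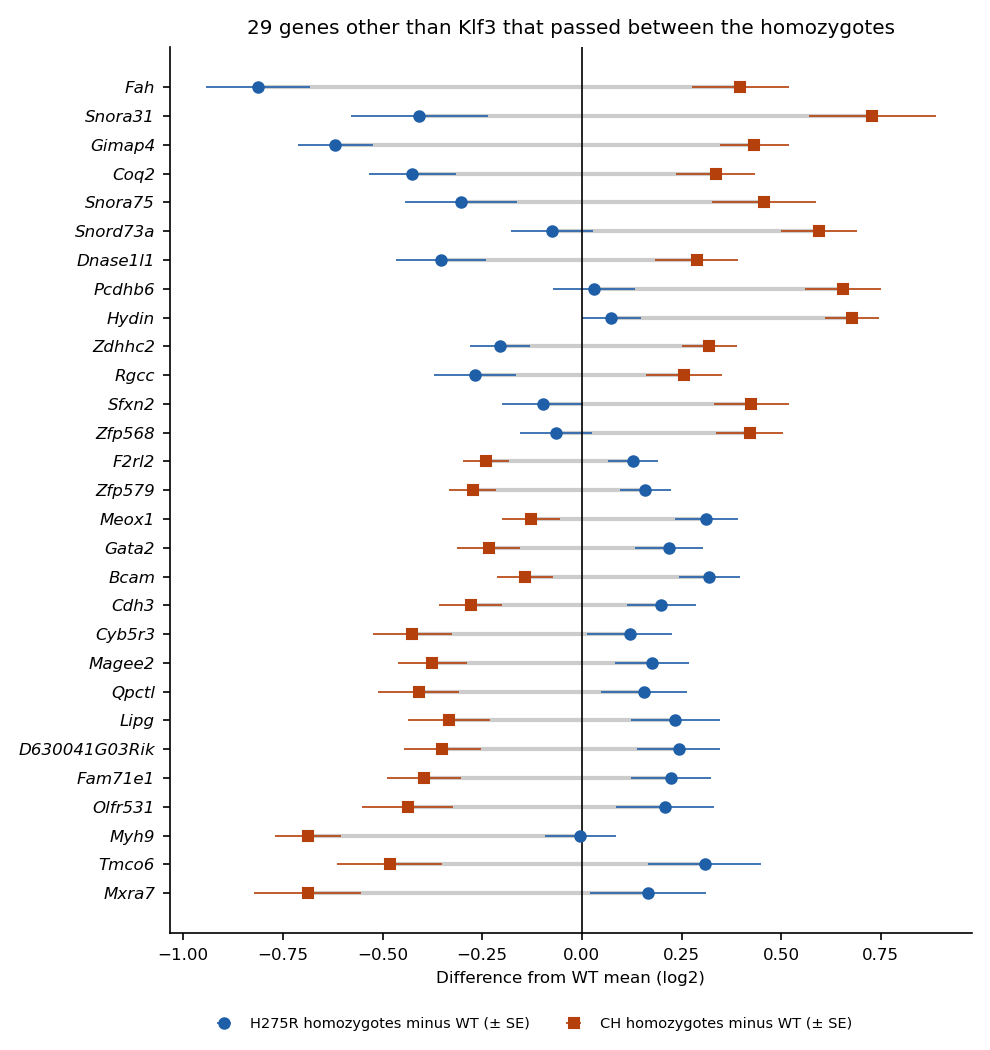
Difference from the WT mean (log2, horizontal axis) of CH homozygotes (squares) and H275R homozygotes (circles) with standard errors, for the 29 passing genes other than Klf3. Fah and Gimap4 lay -0.81 and -0.62 from WT in H275R homozygotes, and Hydin and Pcdhb6 0.68 and 0.65 from WT in CH homozygotes. Most other genes lay on opposite sides of WT in the homozygotes, which choosing genes with a wide gap favours. Of the H275R differences from WT only that of Gimap4 passed. The WT arrays are shared by both differences.

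The same difference was taken between heterozygotes, which are other embryos (4 H275R and 2 CH). Line and allele were the same variable between the homozygotes and also between the heterozygotes. The heterozygote difference therefore cannot tell line from allele, and the paper also reports effects of H275R in heterozygotes. For 27 of the 30 genes the heterozygote difference had the same sign as between homozygotes, as it did for 66.2% of all 22180 genes. The exceptions were Hydin (-0.16), Pcdhb6 (-0.07) and Olfr531 (0.01). Leaving out Klf3, the median size was 0.59 between homozygotes and 0.40 between heterozygotes. For 20 of the 30 genes the heterozygote difference was at least 0.5 times as large. The genes were chosen for their homozygote difference, which favours a smaller one between heterozygotes. No share over all genes is given for these sizes. The CH side rests on 2 embryos that differed widely for some genes, at 6.75 and 9.07 for Pcdhb6 and 8.16 and 7.44 for Tmco6. Mxra7 passed between heterozygotes too (-1.03, adjusted p = 0.0698), where 7 probe sets did (0.0179%).

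In the fit of all 17 arrays, the homozygote difference minus the heterozygote difference passed for 2 probe sets (0.00511%), those of Klf3 and Hydin, with 1197 at an unadjusted p of 0.05. For Klf3 it was -3.54 ± 0.26 (SE, adjusted p = 2.005e-05). For Hydin it was 0.76 ± 0.11 (adjusted p = 0.0848), and it missed the threshold in most alternatives, for example with the replicate number as a block (adjusted p = 0.483). The other genes did not pass, and their intervals, which are not adjusted for the number tested, were wide. For Myh9 the 95% interval was -0.45 to 0.19 and for Mxra7 -0.28 to 0.63, whereas for Gimap4 it was 0.26 to 0.93 around 0.60 and for Zdhhc2 0.13 to 0.73.

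**Figure D3:**
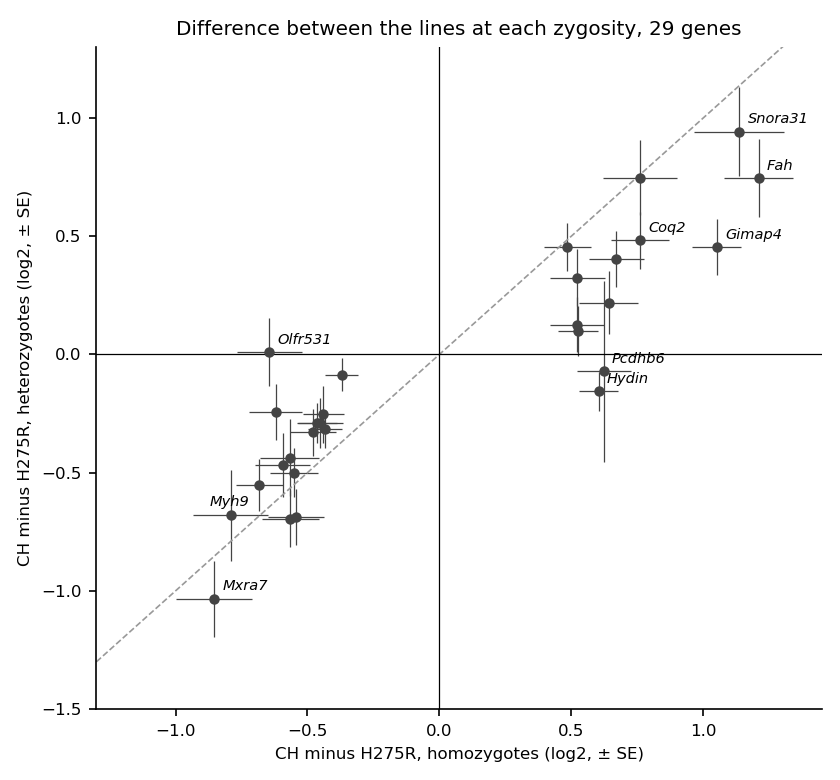
CH minus H275R (log2, with standard errors) between homozygotes (horizontal axis) and between heterozygotes (vertical axis) for the 29 passing genes other than Klf3; the dashed line marks equal differences. Mxra7 (-0.85 and -1.03) and Snora31 (1.14 and 0.94) lay near the line, whereas Hydin (0.60 and -0.16) did not.

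The 4 WT arrays did not lie alike. For 18 of the 30 passing genes WT 4 was the WT array closest to the CH homozygote mean, against 4, 3 and 5 for WT 1 to 3, whereas over all genes it was closest for 26.7%. Mxra7 read 9.43 to 9.50 in WT 1 to 3 and 9.05 in WT 4, with CH homozygotes at 8.33 to 8.97 and H275R homozygotes at 9.46 to 9.59. Snora31 read 7.38 to 7.78 in WT 1 to 3 and 8.26 in WT 4, close to the 8.36 to 8.65 of CH homozygotes. The labels did not say from which line each WT embryo came, and the part of the high placental Tpbpa value of WT 4 in these levels was not tested. Without WT 4, 230 probe sets passed, and all 64 were among them.

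By chromosome, 8 of the 30 passing genes lay on chromosome 7 (26.7%), which held 8.83% of the genes measured. These were Fah, Zfp579, Fam71e1, Bcam, D630041G03Rik, Zfp568, Olfr531 and Qpctl, 2 higher and 6 lower in CH homozygotes. Chromosome 18 held 3 (10%, against 2.34% of genes), and chromosome 5, which carries Klf3, held Klf3 and Coq2. Among 32 genes of the interval around Klf3 in which H275R had been mapped none passed, with a median difference of 0.01.

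Small nucleolar RNAs, which guide modification of ribosomal and other RNAs and are mostly cut from introns of host genes, were mostly above the H275R level in CH homozygotes. Of 73 measured, 3 passed higher (Snora31, Snora75 and Snord73a) and none lower, 64 lay above 0, and the median was 0.29, against a median of -6e-04 over all genes. Snora31 read 8.39, 8.52, 8.36 and 8.65 in CH homozygotes and 7.15, 7.36 and 7.52 in H275R homozygotes, 2.20-fold higher (adjusted p = 0.0329). Snora75 differed by 0.76 ± 0.14 (adjusted p = 0.0748) and Snord73a by 0.67 ± 0.10 (adjusted p = 0.0349). The list mean lay between 8.16 and 8.34 in CH homozygotes and between 7.86 and 8.08 in H275R homozygotes. It was also high in both CH heterozygotes (8.29 and 8.37) and in WT 4 (8.36), with WT 1 to 3 between 7.86 and 8.09.

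Of 62 cytoplasmic ribosomal protein genes none passed, 35 lay above 0 and the median was 0.03. Rps3a1, whose human counterpart hosts SNORD73A, read 11.01, 11.30, 11.00 and 11.13 in CH homozygotes and 10.31, 10.25 and 10.26 in H275R homozygotes, a difference of 0.84 ± 0.17 (adjusted p = 0.110). Rps13 spread most, at 9.32, 5.50, 4.85 and 9.13 in CH homozygotes and 10.17, 10.07 and 10.04 in H275R homozygotes (a difference of -2.89 ± 1.12, adjusted p = 0.309). It read 5.74 in WT 4 and 9.92 to 10.08 in WT 1 to 3. Rpl29, named after its values were seen, had a dimmer probe set that passed (-1.22, adjusted p = 0.0748) beside a brighter one that did not (0.02, adjusted p = 0.950).

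No gene of the red cell, hepatocyte, valve or cartilage lists passed between the homozygotes. Of 15 red cell membrane and blood group genes 14 lay above 0 and 9 were higher at an unadjusted p of 0.05, with a median of 0.41, whereas over all 22180 genes 11047 lay above 0 and 1286 were higher at that p. The list mean was 8.91, 9.82, 9.28 and 9.75 in CH 1 to 4 and lay between 8.84 and 9.17 in H275R homozygotes, so that CH 1 overlapped them and CH 2 and CH 4 were highest. WT arrays lay between 9.36 and 9.65, and the list's median difference from WT was -0.64 in H275R homozygotes and -0.14 in CH homozygotes, which share the WT arrays. Xk, which carries a blood group antigen, was the only gene of the list to pass against WT, by -0.77 ± 0.11 in H275R homozygotes (limma, adjusted p = 0.0756), against -0.47 in CH homozygotes (adjusted p = 0.165). Kel, a blood group protease, read 9.07, 10.13, 9.80 and 9.98 in CH homozygotes and 9.23, 8.91 and 8.59 in H275R homozygotes, with WT at 9.99 to 10.33 (difference between homozygotes 0.84 ± 0.21, adjusted p = 0.154). Ermap (0.86), Rhd (0.84) and Epb42 (0.80), all of the red cell surface or its skeleton, differed by similar amounts with adjusted p from 0.173 to 0.242. Heme synthesis genes had a median of 0.31 (8 of 10 above 0) and erythroid regulators one of 0.34 (10 of 12 above 0). The heme mean was 10.28 and 10.19 in CH 2 and CH 4, but 9.66 in CH 1, inside the H275R range of 9.63 to 9.88. The erythroid mean was 8.92 and 8.73 in CH 2 and CH 4 and 8.27 and 8.41 in CH 1 and CH 3, within the H275R range of 8.18 to 8.41. In these whole embryos fewer cells of a type and less RNA per cell cannot be told apart.

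Of 20 hepatocyte genes 19 lay above 0, 9 were higher at an unadjusted p of 0.05 (over all genes 1286 of 22180) and the median was 0.48. Apob, an apolipoprotein made in liver and yolk sac, read 8.51, 9.98, 8.45 and 10.10 in CH homozygotes and 8.53, 8.03 and 7.86 in H275R homozygotes, so that CH 2 and CH 4 were high and the groups overlapped (adjusted p = 0.246). The hepatocyte mean was 9.21 and 9.17 in CH 2 and CH 4, 8.16 and 8.08 in CH 1 and CH 3, and between 8.08 and 8.36 in H275R homozygotes. The cartilage mean followed the same arrays, at 8.85 and 8.69 in CH 2 and CH 4, 7.78 and 7.73 in CH 1 and CH 3, and 8.04 to 8.24 in H275R homozygotes. Embryonic globins, made by the first red cells from the yolk sac, went the other way, with a list mean of 8.72 and 8.85 in CH 2 and CH 4 and 9.87 and 10.08 in CH 1 and CH 3. With the hepatocyte mean as a covariate 1109 probe sets passed, and with the red cell mean 9, both fits added after the data were seen.

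Of 19 valve genes 13 lay below 0, 7 were lower at an unadjusted p of 0.05 and the median was -0.19. Over all 22180 genes 11133 lay below 0 and 1534 were lower at that p. The list mean lay between 9.37 and 9.51 in CH homozygotes and between 9.63 and 9.65 in H275R homozygotes, without overlap. WT 4 (9.40) and both CH heterozygotes (9.41 and 9.45) lay with the CH homozygotes. The list means of small nucleolar RNA, tyrosine breakdown, Gimap and ubiquinone synthesis genes did not overlap either. Nor did those of nonmuscle myosin and KLF3 partner and target genes, of 36 lists. Means that include a passing gene (such as Fah, Gimap4, Coq2 or Myh9) do not show that the other members differed. The Gimap and ubiquinone synthesis medians were 0.04. The KLF3 partner and target median was -0.02, with 5 of 11 above 0. The largest differences there were those of the reported targets Pqlc3 (1.13) and Crip1 (0.88), which did not pass. Over all single probe sets, an unlike measure, 10.7% did not overlap. Among the valve genes Snai1, a transcription factor of cushion mesenchyme, had the largest difference (-0.72 ± 0.18, adjusted p = 0.164). Msx2 (-0.63), Sox9 (-0.60) and the ligand Bmp4 (-0.58) followed.

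**Figure D4:**
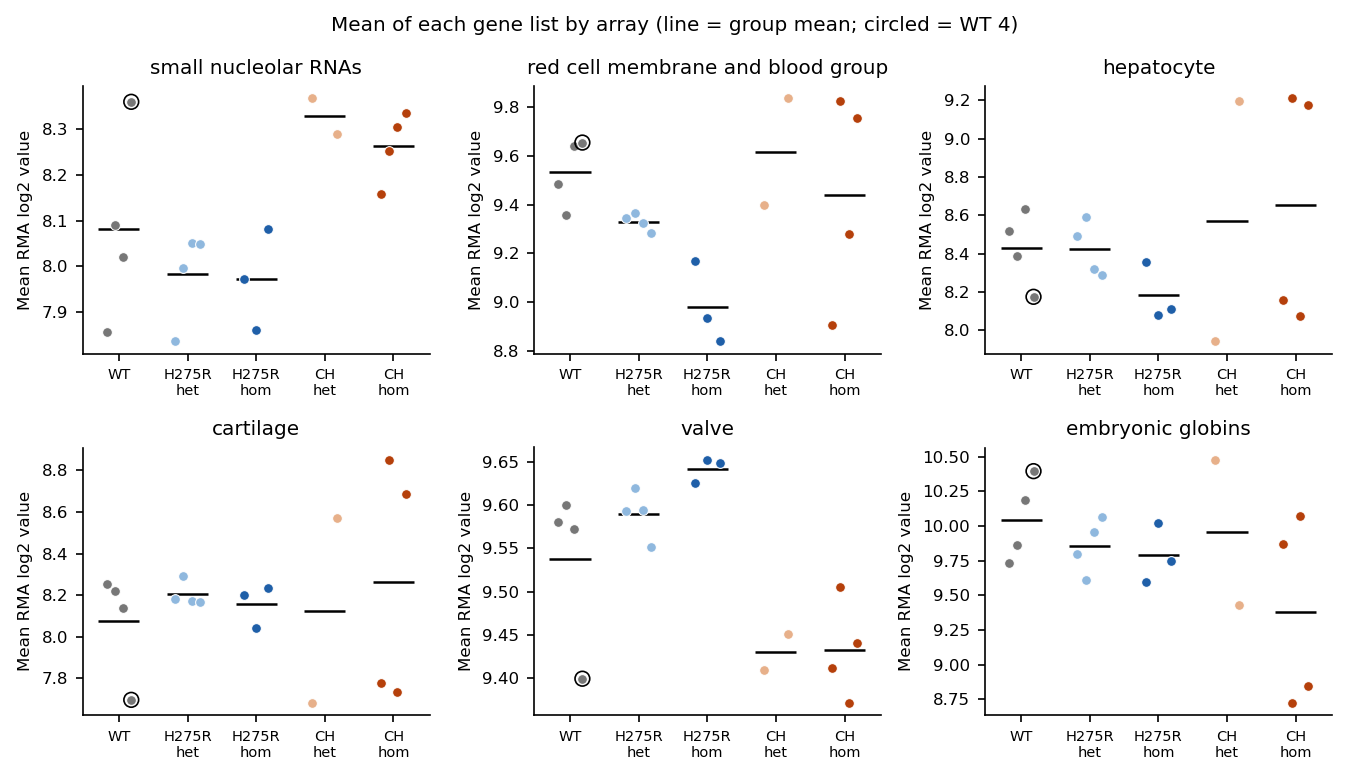
Mean RMA log2 value of 6 gene lists (vertical axis) in each array by genotype (horizontal axis); points are embryos, lines are group means and WT 4 is circled. Small nucleolar RNAs and valve genes did not overlap between the homozygotes, whereas the hepatocyte and cartilage means split the CH homozygotes into CH 2 and CH 4 above CH 1 and CH 3.

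Hsd3b6 was low in both homozygotes. It read 8.69, 9.21, 9.55 and 8.83 in CH homozygotes and 9.10, 9.97 and 9.89 in H275R homozygotes, while all WT arrays read 11.10 to 11.31. The differences from WT were -2.13 ± 0.20 (adjusted p = 9.733e-04) and -1.54 ± 0.22 (adjusted p = 0.0756). Between the homozygotes the difference was -0.58 (95% interval -1.06 to -0.11, adjusted p = 0.296), and the arrays overlapped. Of 16 genes listed for this comparison in the study, chosen on the same arrays and so no independent evidence, 12 passed here. Atp6v1c1 (0.27), Zfp382 (-0.30), Gm5885 (-0.29) and Pias3 (-0.32) did not pass, at adjusted p of 0.131, 0.120, 0.111 and 0.101. Lilra6 shares its probe set with other genes and is not reported.

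Of the 64 passing probe sets, 29 had no gene in the annotation, 19 higher and 10 lower, and 2 carried several gene symbols. Among the 29, the probe sets 17205161 and 17209351 held the same values (a difference of -0.99), so the same measurement was counted more than once. The lowest of the unannotated were 17206817 (-3.46, 3.48 in CH homozygotes and 6.94 in H275R homozygotes) and 17206821 (-2.79), and the highest were 17208691 (1.93) and 17208695 (1.70). In these 4 the CH heterozygote means lay between those of the homozygotes.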

How the data were processed

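Total RNA of 17 whole E12.5 embryos was hybridised to Affymetrix ST gene arrays. The deposited values are log2 signals that the authors normalized by robust multiarray averaging (RMA) in Partek; background correction and summarization cannot be undone from them, and small differences of dim probe sets are compressed. A platform table gave 1 symbol to 23521 of 39137 probe sets, several to 1820 and none to 13796, and 23474 of the first matched RefSeq (GRCm38.p6). A gene was represented by its probe set with the highest mean. Groups came from the labels. Differences were tested with limma 3.58.1 (R 4.3.3) on 15 arrays with 1 mean for each genotype, without CH heterozygotes, and all 17 arrays served for the heterozygote difference and the interaction. P-values were adjusted by Benjamini-Hochberg over all probe sets, passing under 0.1. The fit was tested on simulated data. Named genes were the passing genes, those the study listed, Hsd3b6, and of each of 36 gene lists the passing members or up to 4 with the largest difference, besides markers. The members and lists were chosen with earlier results of these data known. Array number limits the precision.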

Additional observations from a re-analysis of the deposited data

Results flagged for a closer look

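The difference between the lines changed with zygosity for Klf3 (-3.54, homozygote difference minus heterozygote difference) and for Hydin (0.76), by the interaction term in limma (adjusted p = 2.005e-05 and 0.0848).

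In 105 groups of 4 arrays examined for a value far from the 3 others, 8 stood out, and chance gives about 5%. In CH homozygotes these were D630041G03Rik in CH 2 (7.07, the others 6.73 to 6.75), Meox1 in CH 3 (8.58, the others 8.48 to 8.49), Gata2 in CH 4 (8.44, the others 8.71 to 8.76) and Lipg in CH 3 (6.86, the others 6.72 to 6.74). In WT they were Mxra7 (9.05, the others 9.43 to 9.50), Cdh3 (9.40, the others 9.70 to 9.75) and Atp6v1c1 (9.41, the others 9.30 to 9.32) in WT 4, and Gata2 (8.87, the others 8.90 to 8.91) in WT 2.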

How the results depend on the processing

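The number of probe sets passing between the homozygotes depended strongly on the processing. It was 64 in the reported fit, 42 with the replicate number as a block, 15 with only the 7 arrays compared, 129 with limma-trend, 45 with all 17 arrays, 57 with array weights, 60 with robust estimation, 115 among probe sets with 1 symbol, 342 among those above the median level, and 15 at an adjusted p of 0.05. The methods' t-test, named there for general statistics and not for the arrays, passed 0 after Benjamini-Hochberg adjustment and 3624 before it at 0.05, and Klf3 then had an adjusted p of 0.166. With a covariate the count was 34 (Kdm5d), 644 (cartilage mean) and, in fits added after seeing the data, 1109 (hepatocyte mean) and 9 (red cell mean). Leaving out 1 array gave 18 to 547: 18, 42 and 62 without H275R homozygotes 1 to 3, 547, 67, 24 and 38 without CH homozygotes 1 to 4, 35 without WT 3 and 230 without WT 4. The Klf3 difference stayed between -4.04 and -3.63. No passing gene changed sign in 31 alternatives. Of other genes, Hbb-bh1, with a difference of -0.65 in the reported fit, was 0.46 with the hepatocyte mean and 0.47 with the red cell mean, and Fgg, at 0.86, was -0.022 with the red cell mean. The cause of these shifts was not tested.

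The interaction passed for 1 probe set, Klf3, with the replicate block, limma-trend, median centring, the Kdm5d or the cartilage covariate and at an adjusted p of 0.05, and for 1 to 10 without 1 array, the 10 without CH heterozygote 2, where the lone CH heterozygote is assumed to vary like the other groups. Same-numbered homozygotes did not deviate together (correlations of -0.14, -0.14 and -0.10), but so few correlations cannot show whether the numbers pair embryos.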

Other observations

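In the heart and its vessels no listed gene passed between the homozygotes. Of 18 cardiac transcription factors 15 lay below 0 (median -0.11), with Tbx5 at -0.40 ± 0.11 (SE, limma, adjusted p = 0.193) and Hand1 at -0.41 (adjusted p = 0.312). Of 20 cardiac muscle genes 12 lay below 0 (median -0.05), of 20 endothelial genes 15 (median -0.07) and of 10 smooth muscle genes 8 (median -0.16). Their list means overlapped between the homozygotes, at 8.44 to 8.68 against 8.60 to 8.80 for cardiac transcription factors and 8.40 to 8.54 against 8.52 to 8.57 for endothelial genes.

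Of 15 stress-responsive genes (immediate early and heat shock), 12 lay below 0 with a median of -0.21 and 5 were lower at an unadjusted p of 0.05 (over all genes 1534 of 22180). Nr4a1 differed by -0.50 (adjusted p = 0.216) and Jun by -0.40 (adjusted p = 0.197). Of 18 neuronal genes 14 lay below 0 (median -0.08), and of 22 hypoxia and glycolysis genes 13 lay above 0 (median 0.03). The mean of the hypoxia and glycolysis list was 10.28 in CH heterozygote 1 and between 9.43 and 9.81 in the 16 other arrays.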
